A study of Homo sapiens with 12 samples.

Results

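The miR-23a, miR-23b, miR-27 and miR-24 miRNAs are transcribed from 2 clusters of hairpins. The 10 mature miRNAs described here were taken by name: miR-23a, miR-27a, miR-23b and miR-27b with both arms each, and miR-24-3p and miR-24-2-5p. They are 10 of the 1733 miRNAs listed in the 12 small RNA libraries, and all 10 had reads in every library. The counts list them as hsa-mir-23a-3p, hsa-mir-23a-5p, hsa-mir-27a-3p, hsa-mir-27a-5p, hsa-mir-24-3p, hsa-mir-24-2-5p, hsa-mir-23b-3p, hsa-mir-23b-5p, hsa-mir-27b-3p and hsa-mir-27b-5p. The clusters were chosen by a measured value from an earlier look at these counts, taken here to be the change of miR-27a-5p and of its arm ratio between control and MYEOV knockdown libraries. All changes between control and knockdown libraries are therefore given as a description, without p-values.

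The libraries came from AsPC-1 and PANC-1 cells, both established lines of human pancreatic ductal adenocarcinoma (PDAC). Each line had 3 control libraries and 3 libraries made after transfection of siRNA against MYEOV, a gene that the study examined as a promoter of PDAC growth. The study names 2 siRNAs against MYEOV, whereas the knockdown libraries of each line are numbered 1 to 3, so a number may stand for an siRNA or for a replicate. The spread of the knockdown libraries may then hold a difference between siRNAs. The labels give 48 h as the time of harvest, and the methods of the study give another time. The labels call the controls untreated, whereas the methods name a negative control siRNA, so an effect of transfection and an effect of MYEOV depletion cannot be told apart from the labels alone. A general statement of the study says that experiments were repeated independently, but neither the labels nor the sequencing methods say whether the 3 libraries of a group came from separate cultures, so the p-values below measure the spread between these libraries, which may be technical. MYEOV itself is not measured by libraries of small RNA, and the depletion was not checked here.

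Each hairpin of these clusters is cut from a longer primary transcript and then diced into a duplex. One strand of the duplex, from the 5′ side (5p) or the 3′ side (3p) of the hairpin, is loaded into an Argonaute protein more often than the other, and the less used strand is mostly degraded. The seed, bases 2 to 8 of the mature miRNA, does most of the pairing with target mRNAs. MiR-23, miR-27 and miR-24 are widely expressed and are known for roles in endothelial cells, adipocyte differentiation, haematopoiesis and many cancers.

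The mature sequences below are those of RefSeq (table built on GRCh38.p14), in which 10 of 10 members were found, and miR-24-1-5p is added because it marks the other miR-24 locus. They are written 5′ to 3′ with the seed in capitals, and they show which members can pair with the same targets.
miR-23a-3p: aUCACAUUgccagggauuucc
miR-23b-3p: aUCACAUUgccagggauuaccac
miR-27a-3p: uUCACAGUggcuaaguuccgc
miR-27b-3p: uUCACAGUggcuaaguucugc
miR-23a-5p: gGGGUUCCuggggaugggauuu
miR-23b-5p: uGGGUUCCuggcaugcugauuu
miR-27a-5p: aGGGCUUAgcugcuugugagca
miR-27b-5p: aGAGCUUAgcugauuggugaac
miR-24-3p: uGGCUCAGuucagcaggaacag
miR-24-2-5p: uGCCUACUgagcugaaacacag
miR-24-1-5p: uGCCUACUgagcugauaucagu

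MiR-23a-3p and miR-23b-3p have the same seed, and so do miR-27a-3p and miR-27b-3p. Within each of these pairs the only base that differs over the aligned length is at position 19, counted from 1 at the 5′ end (U19A from miR-23a-3p to miR-23b-3p, C19U from miR-27a-3p to miR-27b-3p). The study kept perfect matches of at least 18 bases, and the first 18 bases are identical within each pair, so a read of 18 bases from the annotated 5′ end fits both paralogs, and one that starts further upstream may do so when it is longer. How the authors assigned such reads, and how many there were, is not given in the sources used here, so the division within these 2 pairs is uncertain to that extent. The 5p arms can be told apart more readily. MiR-27a-5p and miR-27b-5p differ at 8 of 22 positions, and 1 of these differences, G3A, lies in the seed, so these 5p arms have different seeds. MiR-23a-5p and miR-23b-5p differ at 7 positions and share a seed, as do miR-24-2-5p and miR-24-1-5p with 6 differences.

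On GRCh37, the build of the mapping, MIR23A (chr19:13947401-13947473), MIR27A (chr19:13947254-13947331) and MIR24-2 (chr19:13947101-13947173) lie on the minus strand within 373 bp. All 3 hairpins lie in an exon of the lncRNA gene MIR23AHG. MIR23B (chr9:97847490-97847586), MIR27B (chr9:97847727-97847823) and MIR24-1 (chr9:97848303-97848370) lie on the plus strand within 881 bp, inside the protein-coding gene AOPEP. MIR23B and MIR27B are intronic in all 7 AOPEP transcripts that span them, and MIR24-1 overlaps an exon of 1 of the 7. MiR-24-3p has the same sequence at both loci, and its reads cannot be assigned to either. The hairpins of miR-27a and miR-27b, on which the arm ratios below turn, are shown with their 2 mature arms in capitals, the 5p arm first.
MIR27A: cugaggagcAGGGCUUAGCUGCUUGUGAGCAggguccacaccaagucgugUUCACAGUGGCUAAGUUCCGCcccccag
MIR27B: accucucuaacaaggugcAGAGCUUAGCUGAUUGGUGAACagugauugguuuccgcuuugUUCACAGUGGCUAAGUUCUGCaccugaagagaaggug

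The libraries held 3805084 to 7311783 reads counted to miRNAs and listed 1014 to 1144 miRNAs each. A count of 3, the limit that a count of 0 allows, equals 0.410 to 0.788 CPM (read counts scaled by library size), and it covers counting error only. AsPC-1 knockdown libraries (5587106 to 5934261 reads) were all smaller than AsPC-1 control libraries (6463528 to 7311783 reads), whereas the totals of the PANC-1 groups overlapped. The part of depth in the AsPC-1 values was not tested, and all 10 members passed the filter on low counts in each comparison. Epithelial markers, the 5 miRNAs of the miR-200 family, summed to 48700 to 52700 CPM in AsPC-1 controls and 49400 to 51600 after knockdown, but only to 250 to 276 and 212 to 251 in PANC-1. The pancreatic acinar markers, miR-216 and miR-217, summed to at most 0.509 CPM in any library. The muscle markers summed to 127 to 177 CPM in PANC-1 and to at most 1.54 in AsPC-1, and the liver marker miR-122 reached 2.38 to 10.8 CPM. The blood markers summed to 8.12 to 12.2 CPM in AsPC-1 controls (4 of 5 with a read, miR-223-3p being at 0) and to 12.3 to 15.9 CPM after knockdown (5 of 5), without overlap, and to 0.509 to 3.10 CPM in PANC-1. Their part in the AsPC-1 results was not tested.

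The 10 members together took 4.16% to 5.49% of all counted reads. In AsPC-1 the control libraries ranged from 4.82% to 5.49% and the knockdown libraries from 5.14% to 5.25%. In PANC-1 the corresponding ranges were 4.42% to 5.05% and 4.16% to 4.72%. The summed output of the clusters thus overlapped between control and knockdown in both lines.

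The 3p arms were the abundant ones. In AsPC-1 controls, miR-27b-3p had 25957 ± 1602 normalized CPM (SD, n = 3), followed by miR-27a-3p at 14288 ± 1032, miR-24-3p at 6325 ± 380, miR-23a-3p at 3054 ± 194 and miR-23b-3p at 1176 ± 62.4. The 5p arms came after them, with miR-27a-5p at 284 ± 14.6, miR-27b-5p at 224 ± 9.29, miR-24-2-5p at 186 ± 12.1, miR-23b-5p at 35.0 ± 2.21 and miR-23a-5p at 1.90 ± 0.245. No neighbours in this order overlapped across the 3 AsPC-1 control libraries, and the order was the same after knockdown.

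PANC-1 cells had a slightly different order. MiR-27b-3p led again with 20791 ± 1229 CPM in controls, and miR-27a-3p (8769 to 10050 CPM) overlapped with miR-24-3p (8514 to 8870 CPM). MiR-24-2-5p, at 335 ± 25.5 CPM, stood above miR-27b-5p, at 152 ± 7.77. After knockdown, miR-27a-5p (885 to 1035 CPM) stood above miR-23b-3p (759 to 784 CPM), whereas in PANC-1 controls miR-23b-3p (873 to 954 CPM) was above miR-27a-5p (419 to 434 CPM). Reads are counted per miRNA and ligation depends on sequence, so levels of different miRNAs compare their reads and not their molecules.

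**Figure D1:**
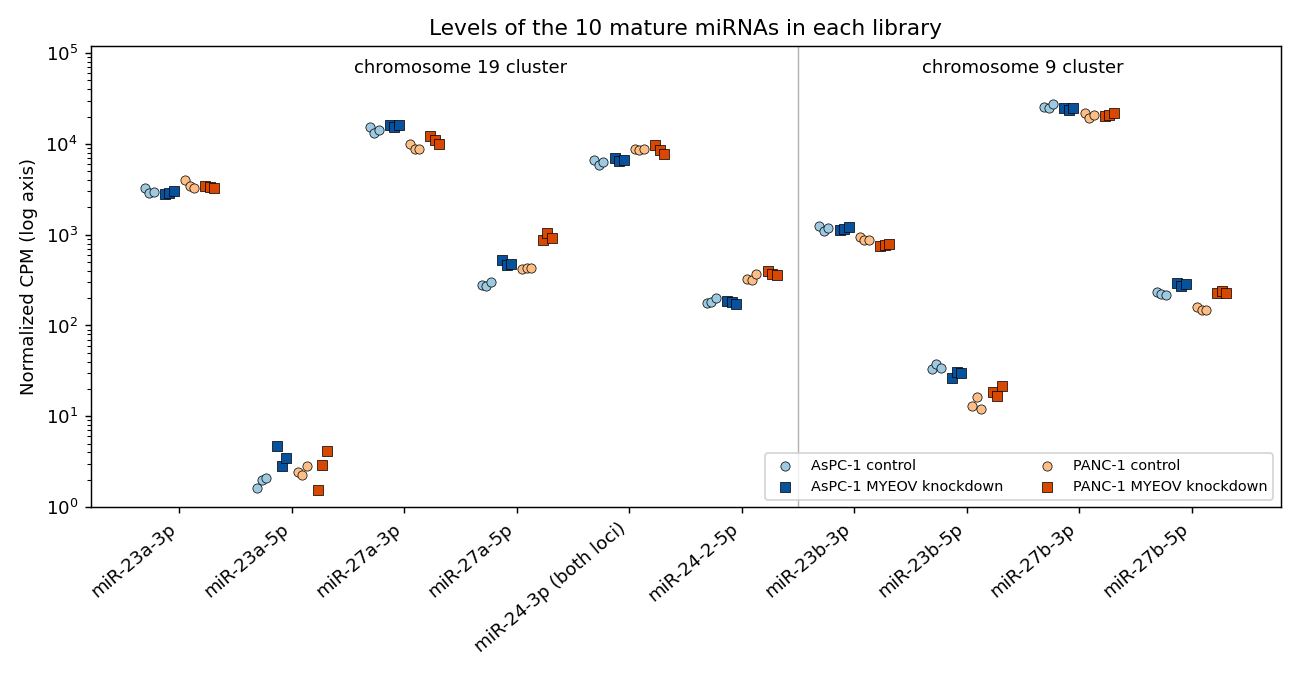
Normalized CPM (log axis) of each member in each of the 12 libraries, with circles for controls and squares for MYEOV knockdown. Values are scaled within each line. The 5p arms of miR-27a and miR-27b show knockdown libraries above their controls in both lines, while the 3p arms of miR-23a and miR-27b overlap.

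MiR-27a-5p, the minor arm of the miR-27a hairpin, had the clearest separation between control and knockdown libraries. In AsPC-1 its 3 control libraries had 277, 273 and 300 CPM and its 3 knockdown libraries 528, 467 and 476 CPM. Every knockdown library was above every control. The log2 fold change (LFC, knockdown minus control, from the edgeR fit) was 0.79 with a standard error (SE) of 0.086. In PANC-1 the controls had 419, 434 and 429 CPM and the knockdown libraries 885, 1035 and 909 CPM. Here too no libraries overlapped, and the LFC was 1.14 (SE 0.086).

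MiR-27a-3p, the major arm of the same hairpin, known to repress genes of adipogenesis, differed much less. Its AsPC-1 controls had 15330, 13267 and 14269 CPM and the knockdown libraries 15989, 15510 and 16005 CPM, an LFC of 0.15 (SE 0.078). These groups did not overlap but were close. The LFC was 0.091 without control replicate 2, 0.045 with all 12 libraries in one fit, and 0.21 without control replicate 1, the only alternative in which it passed the threshold described below. In PANC-1, controls of 10050, 8769 and 8844 CPM stood against 12280, 11000 and 9968 CPM after knockdown. One knockdown library lay below the highest control, and the LFC was 0.27 (SE 0.091). It was 0.12 with the total count, and 0.18 to 0.34 with one library left out.

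MiR-27b-5p, the minor arm of the paralogous hairpin, was also higher after knockdown. AsPC-1 controls had 234, 223 and 215 CPM and knockdown libraries 295, 269 and 286 CPM (LFC 0.34, SE 0.085). PANC-1 controls had 161, 148 and 147 CPM and knockdown libraries 228, 240 and 226 CPM (LFC 0.61, SE 0.090). The groups were separate in both lines. MiR-27b-3p, the most abundant member, showed overlapping groups in both lines, with LFCs of −0.09 (SE 0.078) in AsPC-1 cells and 0.02 (SE 0.087) in PANC-1. The 2 miR-27 5p arms, which have different seeds and come from different chromosomes, were thus both higher in knockdown libraries while their 3p arms differed by at most 0.27 on the log2 scale.

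The miR-23 arms varied in other ways. MiR-23a-3p overlapped between the groups in both lines, with LFCs of −0.07 in each (SE 0.078 and 0.086). MiR-23b-3p overlapped in AsPC-1 (LFC −0.01, SE 0.078). In PANC-1 its controls had 954, 873 and 884 CPM and its knockdown libraries 759, 779 and 784 CPM, so that every knockdown library was below every control (LFC −0.22, SE 0.082). This LFC was −0.37 with the total count and −0.18 with upper-quartile factors.

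MiR-23b-5p, the rare arm of miR-23b, went in opposite directions in the 2 lines. AsPC-1 controls had 33.4, 37.5 and 34.0 CPM and knockdown libraries 26.5, 30.6 and 29.6 CPM (LFC −0.27, SE 0.13). PANC-1 controls had 13.0, 16.3 and 12.2 CPM and knockdown libraries 18.7, 16.8 and 21.6 CPM (LFC 0.45, SE 0.18). The groups did not overlap in either line, but neither change passed the threshold described below.

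MiR-23a-5p was close to the limit of detection. It had 11, 14 and 15 reads in AsPC-1 controls against 27, 17 and 19 after knockdown, and 11, 12 and 11 reads in PANC-1 controls against 6, 11 and 19 after knockdown. Its LFCs were 0.93 (SE 0.33) in AsPC-1, with separate groups, and 0.25 (SE 0.38) in PANC-1, where the knockdown libraries spanned the controls. The PANC-1 value turned to −0.15 without knockdown replicate 3, was 0.53 without knockdown replicate 1 and was 0.096 with the total count.

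MiR-24-3p, a regulator of cell cycle and apoptosis genes, had overlapping groups in both lines, with LFCs of 0.09 (SE 0.078) in AsPC-1 cells and 0.00 (SE 0.089) in PANC-1. MiR-24-2-5p, its partner arm from the chromosome 19 cluster, overlapped as well, with −0.05 (SE 0.089) and 0.17 (SE 0.087). MiR-24-1-5p, from the chromosome 9 cluster, had LFCs of −0.12 and 0.21, and its groups also overlapped in both lines.

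**Figure D2:**
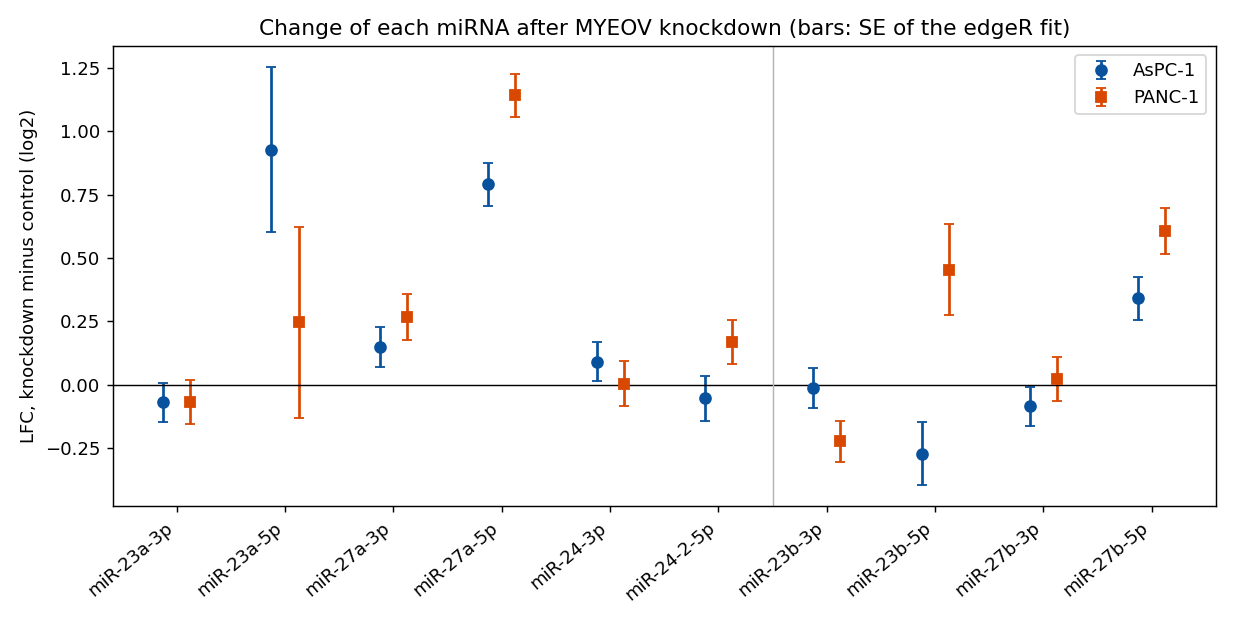
LFC of each member after MYEOV knockdown in AsPC-1 (circles) and PANC-1 (squares), with the SE of the edgeR fit as bars and the chromosome 19 cluster to the left of the grey line. MiR-27a-5p (0.79 and 1.14) and miR-27b-5p (0.34 and 0.61) lie above 0 in both lines, and miR-23b-5p lies on opposite sides of 0.

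The members can be set beside all miRNAs tested, where an adjusted p under 0.05 in edgeR was the threshold. In AsPC-1, 57 of 498 miRNAs (11.4%) passed, and 2 of the 10 members did, miR-27a-5p and miR-27b-5p, both higher (7.03% of all miRNAs were higher and 4.42% lower). These were 35 higher and 22 lower miRNAs, against 25 and 45 with all 12 libraries in one fit. In PANC-1, 121 of 551 miRNAs (22.0%) passed, and 4 members did: miR-27a-5p, miR-27b-5p and miR-27a-3p were higher and miR-23b-3p was lower (12.7% of all miRNAs were higher and 9.26% lower). Since the change of miR-27a-5p entered the choice of the clusters, nothing is read from these counts. Groups that did not overlap were found for 5 members in AsPC-1 (4 higher, 1 lower), beside 30.5% of all miRNAs tested (16.9% higher, 13.7% lower). In PANC-1 they were found for 4 members (3 higher, 1 lower), beside 36.7% (19.6% higher, 17.1% lower). The median LFC of the members was 0.038 in AsPC-1, against −0.0047 over all miRNAs tested, and 0.21 in PANC-1, against 0.028. Of the PANC-1 calls, 70 were higher and 51 lower after knockdown, but this split depended on the scaling, with 26 higher and 117 lower under the total count and 65 and 29 under upper-quartile factors. The total count moved the median of all miRNAs in PANC-1 to −0.12.

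Over 13 alternative fits, the LFC of miR-27a-5p ranged from 0.69 to 0.84 in AsPC-1 cells and from 1.00 to 1.19 in PANC-1. That of miR-27b-5p ranged from 0.24 to 0.38 and from 0.46 to 0.65, and in AsPC-1 it passed the threshold in 9 of the 13. MiR-27a-3p and miR-23b-3p passed in only 5 of 13 alternatives each in PANC-1. The sign of the LFC changed in at least 1 alternative for miR-24-3p, miR-24-2-5p and miR-23b-3p in AsPC-1, and for miR-24-3p, miR-23a-3p, miR-23a-5p and miR-27b-3p in PANC-1, and none of these had passed there. These ranges come from the same libraries as the choice of the clusters.

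The ratio of the 2 arms of a hairpin is taken within a library and does not depend on the scaling between libraries. In AsPC-1 controls, miR-27a-5p made up 1.77%, 2.02% and 2.06% of the reads of both miR-27a arms. After knockdown it made up 3.19%, 2.92% and 2.89%. There were 50.5 reads of the 3p arm for each read of the 5p arm in controls on average, and 32.4 after knockdown. On the log2 scale, the ratio of 5p to 3p reads went from −5.65 ± 0.12 (SD, n = 3) to −5.02 ± 0.08, a difference of 0.64.

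PANC-1 cells had a larger share of the 5p arm to begin with. It made up 4.002%, 4.71% and 4.63% of miR-27a reads in controls and 6.72%, 8.60% and 8.35% after knockdown. No libraries overlapped. The 3p reads per 5p read went from 21.6 to 11.8 on average, and the log2 ratio from −4.43 ± 0.14 to −3.55 ± 0.21, a difference of 0.88.

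The miR-27b hairpin showed the same direction. Its 5p arm made up 0.858% ± 0.0796 of the reads of both arms in AsPC-1 controls and 1.15% ± 0.0261 after knockdown, and 0.726% ± 0.0314 and 1.08% ± 0.0540 in PANC-1. The log2 ratio differed by 0.43 and 0.58, and the groups were separate in both lines. The share of the 5p arm stayed smaller for miR-27b than for miR-27a in every library.

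For the miR-23b hairpin the direction differed between the 2 lines, and the difference between these changes was not tested. The 5p share was 2.63%, 3.26% and 2.80% in AsPC-1 controls and 2.28%, 2.59% and 2.40% after knockdown, a log2 difference of −0.26 (−0.17 without control replicate 2). In PANC-1 it was 1.34%, 1.84% and 1.36% in controls and 2.41%, 2.12% and 2.68% after knockdown, a log2 difference of 0.69. Each pair of groups was separate. MiR-23a-5p stayed under 0.164% of the miR-23a reads in all libraries, with log2 differences of 0.97 in AsPC-1 cells and 0.17 in PANC-1, and the latter turned to −0.16 without knockdown replicate 3.

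MiR-24-2-5p has no 3p partner of its own in these counts, since miR-24-3p also comes from the other locus. Set against all miR-24-3p reads, it made up 2.86% ± 0.245 in AsPC-1 controls and 2.59% ± 0.117 after knockdown, and 3.69% ± 0.240 and 4.14% ± 0.292 in PANC-1. Both pairs of groups overlapped.

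**Figure D3:**
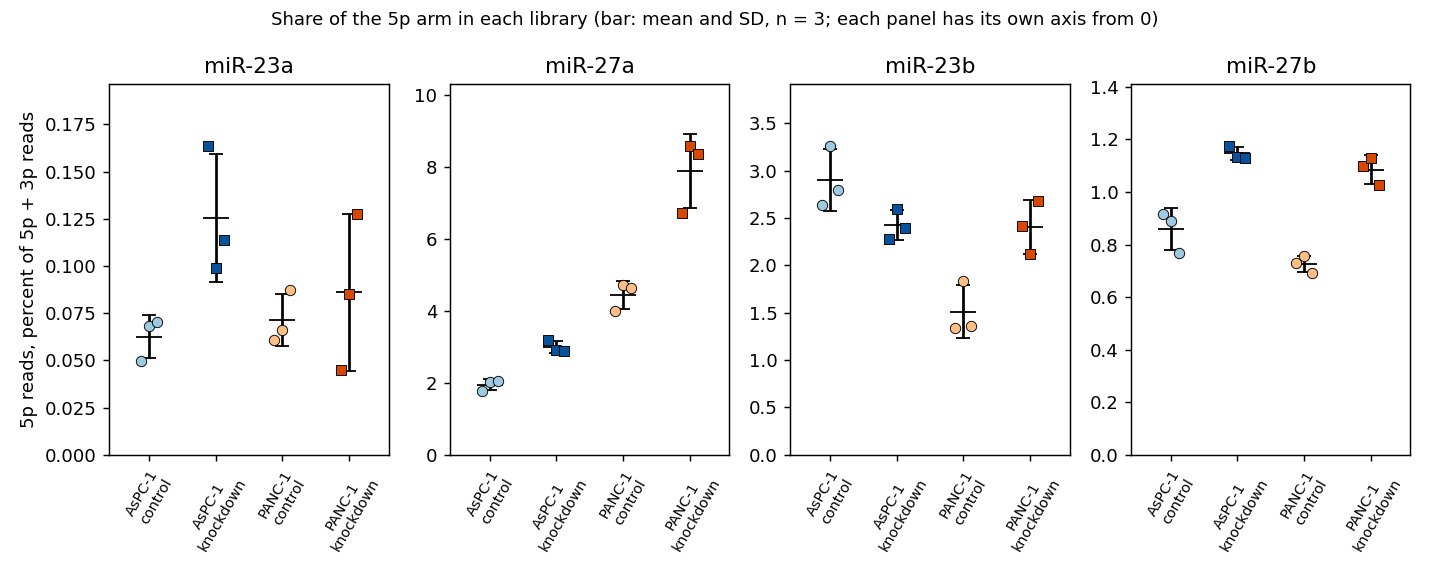
Percent of 5p reads among the reads of both arms of miR-23a, miR-27a, miR-23b and miR-27b in each library, with the mean and SD of the 3 libraries of each group. Each panel has its own axis from 0. For miR-27a and miR-27b, all knockdown libraries lie above all controls of their line, and for miR-23b they lie below in AsPC-1 cells and above in PANC-1.

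Among all hairpins with both arms tested, the change of miR-27a was large but not the largest. In AsPC-1 it ranked 16 of 127 by absolute change, and in PANC-1 it ranked 4 of 150. The 3 hairpins with larger changes in PANC-1 were miR-5699 (−1.19), miR-200a (0.92) and miR-642a (−0.88). MiR-27b ranked 35 of 127 and 22 of 150, and miR-23b 65 of 127 and 8 of 150. MiR-23a ranked 5 of 127 and 93 of 150, on the few reads given above, and its groups overlapped in PANC-1 (change 0.17). The median absolute change over all hairpins was 0.27 in AsPC-1 cells and 0.26 in PANC-1, and the median signed change was −0.034 and −0.024. Groups without overlap were found for 29.9% of the hairpins in AsPC-1, beside all 4 hairpins described here. In PANC-1 they were found for 29.3%, beside 3 of the 4. Nothing is read from these counts because of the choice of the clusters.

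For miR-27a and miR-27b the 5p arm is the one with fewer reads. Taken as the ratio of the minor to the major arm of each hairpin, a view chosen after seeing the data, the median change over all hairpins was 0.092 in AsPC-1 cells and 0.14 in PANC-1. The minor share was higher after knockdown for 75 of 127 hairpins (59.1%) in AsPC-1 cells and for 102 of 150 (68.0%) in PANC-1.

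**Figure D4:**
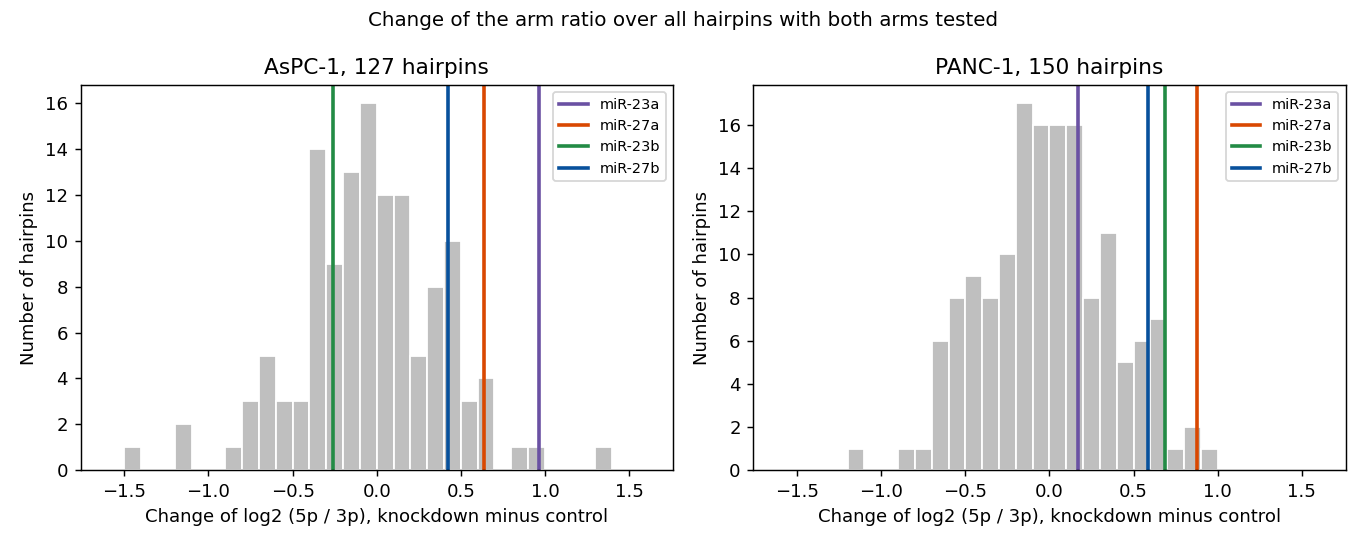
Number of hairpins by change of the log2 ratio of 5p to 3p reads after MYEOV knockdown, for the 127 hairpins of AsPC-1 and the 150 of PANC-1, with 4 hairpins of the clusters as coloured lines. MiR-27a (0.64 and 0.88) and miR-27b (0.43 and 0.58) lie to the right of the bulk in both panels, miR-23b moves from −0.26 to 0.69, and miR-23a from 0.97 to 0.17.

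Ratios between members of a cluster are likewise taken within a library. On chromosome 19, there were 4.56 to 4.79 reads of miR-27a-3p per read of miR-23a-3p in AsPC-1 controls and 5.31 to 5.64 after knockdown. In PANC-1 these ranges were 2.53 to 2.72 and 3.04 to 3.54. The knockdown libraries were above the controls in both lines. On chromosome 9, the reads of miR-27b-3p per read of miR-23b-3p overlapped in AsPC-1 (20.4 to 23.5 and 20.4 to 21.8) and were separate in PANC-1 (22.3 to 23.8 and 26.98 to 27.9).

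Paralogs of the 2 clusters were compared in the same way. MiR-27a-3p made up 35.5% ± 2.03 of the reads of both miR-27 3p arms in AsPC-1 controls and 39.3% ± 0.402 after knockdown, without overlap. In PANC-1 it made up 30.7% ± 0.970 and 34.4% ± 3.07, and the groups overlapped. MiR-27a-5p made up 55.9% ± 2.13 and 63.3% ± 0.835 of both miR-27 5p arms in AsPC-1, and 73.8% ± 1.31 and 80.3% ± 0.827 in PANC-1, without overlap in either line. MiR-23a-3p supplied 72.2% ± 0.517 and 71.4% ± 0.0255 of both miR-23 3p arms in AsPC-1 cells and 79.6% ± 0.982 and 81.4% ± 0.683 in PANC-1. The groups were separate in both lines, with knockdown lower in AsPC-1 (71.36% to 71.41%, against 71.6% to 72.6%) and higher in PANC-1 (80.7% to 82.1%, against 78.7% to 80.6%). The difference between the lines was not tested, and no background of such shares over other miRNAs was taken. The division within the pairs of 3p arms is uncertain to the extent given above. The share of miR-24-2-5p among both miR-24 5p arms, which separates the loci, overlapped between control and knockdown, at 87.7% ± 1.38 and 88.1% ± 1.40 in AsPC-1 cells and 95.2% ± 0.446 and 95.1% ± 0.417 in PANC-1.

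The difference between the control lines was taken not to have entered the choice of the clusters, and the p-values below rest on that. Control AsPC-1 libraries were tested against control PANC-1 libraries with edgeR and Benjamini-Hochberg adjustment over 627 miRNAs. Of these, 519 (82.8%) passed the threshold, and 7 of the 10 members did, a share no higher than the background. In AsPC-1, 5 members were higher, beside 36.0% of all miRNAs, and 2 were lower, beside 46.7%. The groups did not overlap for 8 members (5 higher, 3 lower), beside 82.1% of all miRNAs tested (35.6% higher, 46.6% lower). The median LFC (AsPC-1 minus PANC-1) was 0.33 for the members and −0.27 over all miRNAs tested. That overall median depended on the scaling, at −0.60 with the total count and 0.65 with upper-quartile factors, so the LFCs below hold relative to it. Over all miRNAs, 226 were higher and 293 lower in AsPC-1, against 174 and 335 with the total count and 345 and 200 with upper-quartile factors.

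The 4 members that come from chromosome 9 alone were higher in AsPC-1. MiR-23b-5p had 39.5 ± 2.43 CPM in AsPC-1 cells and 12.9 ± 2.10 in PANC-1, an LFC of 1.60 (SE 0.16, adjusted p = 3.4e-07). MiR-27b-5p had an LFC of 0.83 (SE 0.10, adjusted p = 2.33e-06), miR-23b-3p one of 0.65 (SE 0.095, adjusted p = 1.55e-05) and miR-27b-3p one of 0.59 (SE 0.090, adjusted p = 2.52e-05). These 4 kept their direction and passed in all 13 alternatives, but their size depended on the scaling. From the total count to upper-quartile factors, the LFC went from 1.26 to 2.52 for miR-23b-5p, from 0.49 to 1.76 for miR-27b-5p, from 0.32 to 1.58 for miR-23b-3p and from 0.25 to 1.52 for miR-27b-3p.

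The members from chromosome 19, and miR-24-3p from both loci, did not move together. MiR-27a-3p was higher in AsPC-1, with 16141 ± 1357 CPM against 8616 ± 606 (LFC 0.91, SE 0.098, adjusted p = 6.8e-07), and passed in all 13 alternatives (0.57 with the total count and 1.83 with upper-quartile factors). Its partner arm, miR-27a-5p, was lower, with 320 ± 12.8 CPM in AsPC-1 cells and 399 ± 9.81 in PANC-1 (LFC −0.32, SE 0.094, adjusted p = 0.00615), but was −0.66 with the total count and passed as higher with upper-quartile factors (0.60, adjusted p = 4.07e-05). Its call was lost without PANC-1 control replicate 2 (LFC −0.27, adjusted p = 0.0702) and with all 12 libraries in one fit (−0.17, adjusted p = 0.0965). MiR-24-2-5p was lower as well, with 210 ± 10.4 and 313 ± 25.2 CPM (LFC −0.58, SE 0.10, adjusted p = 0.000109), but was −0.92 with the total count and passed as higher with upper-quartile factors (0.35, adjusted p = 0.00847). The edgeR test did not pass for miR-24-3p (LFC −0.19, adjusted p = 0.0617), miR-23a-3p (0.06, adjusted p = 0.603) or miR-23a-5p (−0.11, adjusted p = 0.777). MiR-24-3p passed as lower in AsPC-1 with the total count (−0.53, adjusted p = 8.6e-05), with the replicate block (−0.20, adjusted p = 0.00638) and without AsPC-1 control replicate 1 (−0.22, adjusted p = 0.0343). With upper-quartile factors miR-24-3p turned to 0.73 (adjusted p = 3.43e-06) and miR-23a-5p to 0.81 (adjusted p = 0.0267), both then passing as higher. MiR-23a-3p passed as higher with upper-quartile factors (0.98, adjusted p = 1.14e-07) and as lower with the total count (−0.28, adjusted p = 0.0324).

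Arm ratios between the lines do not depend on scaling and were tested with limma over 167 hairpins, of which 55 (32.9%) passed, among them 2 of the 4 hairpins described here. The log2 ratio of 5p to 3p reads of miR-27a was 1.23 lower in AsPC-1 controls, at −5.65 ± 0.12 against −4.43 ± 0.14 in PANC-1 (difference −1.23, SE 0.16, adjusted p = 0.00262). That of miR-23b was 0.96 higher in AsPC-1, at −5.07 ± 0.16 against −6.03 ± 0.26 (SE 0.20, adjusted p = 0.0142). MiR-27b differed by 0.24 (SE 0.15, adjusted p = 0.277) and miR-23a by −0.20 (SE 0.22, adjusted p = 0.544), and neither passed. By absolute difference, miR-27a ranked 33 and miR-23b 54 of the 167 hairpins. Both calls held in all 10 alternatives of this test. The miR-27a ratio was taken to have entered the choice of the clusters through its knockdown change, with these same control libraries on 1 side.

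Of 8 other miRNAs listed beside the members, arms of miR-24-1, miR-3074, miR-23c and miR-128, 3 were tested in AsPC-1 cells and 4 in PANC-1, and none passed the threshold after knockdown. In AsPC-1 the LFCs were −0.12 for miR-24-1-5p, −0.03 for miR-128-3p and −0.33 for miR-128-1-5p, whose groups did not overlap. Without AsPC-1 control replicate 1, miR-128-3p passed at −0.19, and without control replicate 2 it turned to 0.078. MiR-24-1-5p was −0.22 without control replicate 1 and turned to 0.058 without control replicate 3. In PANC-1 they were 0.21, −0.04 and 0.05, and −0.13 for miR-3074-5p, which is transcribed opposite to miR-24-1. With one library left out, that of miR-24-1-5p was 0.099 to 0.28 and that of miR-3074-5p −0.31 to −0.013, and with the total count miR-128-1-5p turned to −0.095. Between the control lines, miR-24-1-5p was higher in AsPC-1, at 29.6 ± 5.33 CPM against 15.9 ± 2.28 (edgeR LFC 0.90, adjusted p = 0.00033), an LFC that was 0.56 with the total count and 1.83 with upper-quartile factors. MiR-3074-5p, from the same locus, was lower in AsPC-1 on 5 to 14 reads per control library (edgeR LFC −1.05, adjusted p = 0.0149). Its call was lost with upper-quartile factors (−0.14, adjusted p = 0.735), with DESeq2's Wald test (0.0595) and with all 12 libraries in one fit (0.0539). It was also lost without PANC-1 control replicate 1 (0.0659) or 3 (0.0544) or AsPC-1 control replicate 3 (0.0815). With DESeq2 factors in edgeR the call held (adjusted p = 0.0142). MiR-128-3p was lower as well (LFC −0.40, adjusted p = 0.0142), but passed as higher with upper-quartile factors (0.52, adjusted p = 0.00561). Its call was lost without PANC-1 control replicate 2 (adjusted p = 0.0598) or 3 (0.111), and without AsPC-1 control replicate 1 (LFC −0.21, adjusted p = 0.0632). MiR-128-1-5p did not pass (LFC −0.11, adjusted p = 0.561), but passed as higher with upper-quartile factors (0.81, adjusted p = 0.00035) and as lower with the total count (−0.45, adjusted p = 0.0394). MiR-23c had at most 5 reads in any library and miR-3074-3p at most 2. The names miR-24-1-3p and miR-128-2-5p are in no list of these libraries, and the 3p arm of MIR24-1 is counted within miR-24-3p.

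Over the 12 libraries, the 3 miRNAs whose log2 CPM was most like that of miR-27a-5p, among 398 others with a mean of at least 10 CPM, were miR-30e-3p (Pearson r = 0.90), miR-7974 (0.86) and miR-486-3p (0.86). These correlations describe libraries that share the same line and knockdown groups. MiR-30e-3p had 438 ± 35.0 CPM in AsPC-1 controls and 655 ± 27.6 after knockdown, and 606 ± 5.74 and 789 ± 43.0 in PANC-1. Within the 6 libraries of each line, r was 0.995 in AsPC-1 cells and 0.994 in PANC-1. For miR-27b-5p, r with miR-27a-5p was 0.12 over all 12 libraries, but 0.88 within AsPC-1 and 0.99 within PANC-1. For miR-27a-3p, the other arm of the hairpin, r was −0.20 over all 12 libraries, 0.34 within AsPC-1 and 0.74 within PANC-1. Within a line these values rest mostly on the difference between control and knockdown libraries, given above.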

How the data were processed

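Small RNA libraries of 12 samples were analysed, grouped by the labels into 3 control and 3 MYEOV knockdown libraries of each line. The authors trimmed adapters, mapped reads to hg19 with Bowtie (version not given in the sources used here), kept perfect matches of at least 18 bases, and deposited raw counts per mature miRNA, each the count of its most abundant sequence near the annotated 5′ end and of sequences with the same start. Reads with another start are left out by this rule. Where a miRNA is missing from a library's list, its count was set to 0. No pair of libraries held identical values, and no library was left out.

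The counts were fitted with edgeR 4.0.16 in R 4.3.3 (filterByExpr with a minimum count of 10, TMM factors, quasi-likelihood F test, two-sided, Benjamini-Hochberg adjustment over all miRNAs tested, threshold 0.05), each line by itself and the control lines against each other. TMM factors were 0.978 to 1.05 in AsPC-1, 0.920 to 1.08 in PANC-1 and 0.878 to 1.17 between the lines. CPM uses these factors, so a miRNA has other CPM values in each comparison. Arm ratios were log2 of 5p to 3p counts with 0.5 added to each, and were tested between the control lines with limma 3.58.1, without a trend. Scripts were tested on simulated data. The limit that a count of 0 allows covers counting error only, and no source used here names molecular identifiers.

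The members and lists were chosen with earlier results of these data known. All 10 members, 8 listed relatives (arms of miR-24-1, miR-3074, miR-23c and miR-128), the 3 miRNAs most like miR-27a-5p over the 12 libraries, and hairpins with a larger arm change than miR-27a (where 5 or fewer) are named, and sequences were located on GRCh37 by exact match, with genes from its GENCODE annotation. As alternatives, the fits were repeated with total-count, upper-quartile and DESeq2 1.42.0 factors, without the filter, with DESeq2's Wald test, with a replicate block, with all 12 libraries in one fit, with each library left out, with a threshold of 0.01 and, for arm ratios, other added counts, summed counts and other limma settings.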

Additional observations from a re-analysis of the deposited data

Results flagged for a closer look

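MiR-23b-5p moved in opposite directions after MYEOV knockdown in the 2 lines, with every knockdown library below every control in AsPC-1 (LFC −0.27) and above every control in PANC-1 (LFC 0.45). In one edgeR fit over all 12 libraries the LFC was −0.37 in AsPC-1 cells and 0.45 in PANC-1. There the change in AsPC-1 minus that in PANC-1 was −0.82 (SE 0.23), and the interaction, adjusted over 650 miRNAs, did not pass the threshold of 0.05.

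The arm ratio of miR-23b likewise went down in all AsPC-1 knockdown libraries (−0.26 on the log2 scale, and −0.33 to −0.17 with one library left out, the latter without control replicate 2) and up in all PANC-1 knockdown libraries (0.69). The change in AsPC-1 minus that in PANC-1 was −0.95, and the difference between these 2 changes was not tested. It rests on 154 to 265 reads of miR-23b-5p per library in AsPC-1 cells and 47 to 98 in PANC-1.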

How the results depend on the processing

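The counts of members after knockdown come from the contrast that entered the choice of the clusters, so they are a description and support nothing. In AsPC-1, 2 members passed the threshold after knockdown, beside 57 of 498 miRNAs. With the replicate block 1 did, beside 29 of 498, and with all 12 libraries in one fit 1 did, beside 70 of 650. At a threshold of 0.01 it was 1, and the count over all miRNAs was not taken there. With one library left out, 1 to 3 passed, beside 24 to 102 miRNAs (1 without knockdown replicate 1 or 3). In PANC-1, 4 passed, beside 121 of 551 miRNAs. With upper-quartile factors 2 did, beside 94 of 551, and without the filter 2 did, beside 90 of 1521. With all 12 libraries in one fit 2 did, beside 67 of 650. At a threshold of 0.01 it was 2, again without a count over all miRNAs. With one library left out, 2 to 3 passed, beside 55 to 129 miRNAs (2 without control replicate 2, or knockdown replicate 1 or 2). Between the control lines 7 members passed, beside 519 of 627 miRNAs, and 6 to 8 with one library left out, beside 508 to 530 miRNAs. In that comparison upper-quartile factors turned the LFC of miR-27a-5p to 0.60, miR-24-3p to 0.73, miR-24-2-5p to 0.35 and miR-23a-5p to 0.81, where all 10 members were then higher and passed, beside 545 of 627 miRNAs (345 higher, 200 lower, overall median 0.65), and the total count turned miR-23a-3p to −0.28. MiR-27a-5p did not pass without PANC-1 control replicate 2 (adjusted p = 0.0702, edgeR) or with all 12 libraries in one fit (0.0965). The knockdown difference of the miR-27a arm ratio was 0.57 to 0.68 in AsPC-1 cells and 0.80 to 1.00 in PANC-1 with one library left out, and the 2 arm-ratio calls between the lines held throughout. The arm-ratio change of miR-23a in PANC-1 was −0.16 to 0.55 with one library left out, and −0.16 without knockdown replicate 3. The cause was not tested.

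Calls over all miRNAs in AsPC-1 were 57, or 29 with the replicate block, and 24 to 102 with one library left out (24 without knockdown replicate 1, 31 without knockdown replicate 3, 102 without control replicate 1). In PANC-1 they were 121, or 67 with all 12 libraries in one fit, and 55 to 129 with one library left out (55 without knockdown replicate 3, 68 without knockdown replicate 2). Replicate numbers were not used as pairs in the main fits. The deviations from the group mean of libraries with the same number correlated at −0.15, −0.11 and 0.13 in AsPC-1 cells and at 0.038, 0.025 and 0.13 in PANC-1. The control library was most like the knockdown library of its own number for replicate 3 in AsPC-1 and for replicates 2 and 3 in PANC-1. Between the control lines they correlated at 0.16, 0.037 and 0.083, each library there being most like its own number, a hint from the data only. With the block, 4 members passed in PANC-1, beside 153 of 551 miRNAs, and 8 between the control lines, beside 537 of 627. Depth limits miR-23a-5p, with 6 to 27 reads per library.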
